A study of Homo sapiens with 3 samples.

Results

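The plasminogen activator system was examined in 3 cultured human hepatocellular carcinoma (HCC) lines through 6 genes chosen by name: the activators PLAU and PLAT, the receptor PLAUR, the inhibitors SERPINE2 and SERPINB2, and the plasminogen-binding annexin ANXA2. All 6 were listed in each library, out of 16149 genes listed in at least 1 of the 3 libraries. The lines were parent, labelled as HCCLM3 cells of low metastasis ability, subclone 1, labelled as having a higher ability specific to lung, and subclone 2, labelled as able to reach both the lung and the celiac lymph node. The study's methods instead give its parental line, HCCLM3-R, which expresses red fluorescent protein, a high metastatic potential. By those methods its monoclonal lines each grew from a single cell of a lung or lymph node focus in nude mice, so that each subclone stands for 1 clone. All 3 lines were grown in the same medium, with no drug treatment named, and 1 library was sequenced from each. With 1 library per line no difference between lines could be tested, and no p-value is given.

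Plasmin is a serine protease of broad specificity that dissolves fibrin and degrades matrix proteins. It is cut from the circulating zymogen plasminogen by urokinase (the product of PLAU), which works on cell surfaces when held by its receptor (PLAUR), and by tissue-type activator (PLAT), which works best on fibrin. Serpins block both activators by forming a covalent complex with them: PAI-2 (SERPINB2) is made by monocytes and keratinocytes, and protease nexin 1 (SERPINE2) also blocks thrombin. Annexin A2, with its partner S100A10, binds plasminogen and tissue-type activator at the membrane. Tumour cells are known to use this system to open the matrix during invasion.

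Levels were given as RPKM, reads scaled to gene length and to library size, which lets genes be compared with each other. The whole reads behind the RPKM could be recovered and gave library totals of 4488825, 4609696 and 4725150 for parent, subclone 1 and subclone 2. The intervals below are exact 95% intervals on these reads, Poisson for a level and binomial for a ratio. They cover counting error only and compare libraries, since the spread between cultures of a line was not measured. The labelled cell type was checked on 12 hepatocyte and HCC markers. APOA2 was not analysed here, and 10, 10 and 11 of the other 11 were listed in parent, subclone 1 and subclone 2. A gene counted as listed from 1 read, and some markers were near 0 in all 3 libraries. These were APOA1 (1, 3 and 2 reads), TTR (0, 0 and 2) and SERPINA1 (1, 4 and 1). HNF4A was at 11.7, 11.9 and 16 RPKM, and ALB was at 2.46, 49.5 and 68.8 RPKM, low in the parent and higher in both subclones. TF was at 5.71, 30.3 and 5.88 RPKM, high in subclone 1 alone. The summed level of the list without its keratins was 24.5, 113 and 106 RPKM.

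The promoters of 4 of the 5 genes at or above a mean of 1 RPKM are shown, since each holds an AP-1 site or several boxes of the same kind. That of PLAT was not searched here. The sequences are those of RefSeq on GRCh38.p14, the 250 bases before a start site, read 5′ to 3′ on the strand of the gene. Capitals mark AP-1 sites, spelled TGANTCA, boxes of the letters TATAAA, boxes of the letters CCAAT and GC boxes, spelled GGGCGG, each searched on both strands.
PLAUR, chr19:43670170-43670419, minus strand: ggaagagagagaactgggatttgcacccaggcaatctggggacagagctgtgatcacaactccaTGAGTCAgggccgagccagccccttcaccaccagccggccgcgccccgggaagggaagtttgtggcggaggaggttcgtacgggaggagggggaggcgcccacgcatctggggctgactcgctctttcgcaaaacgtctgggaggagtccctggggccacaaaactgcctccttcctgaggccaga
ANXA2, chr15:60397987-60398236, minus strand: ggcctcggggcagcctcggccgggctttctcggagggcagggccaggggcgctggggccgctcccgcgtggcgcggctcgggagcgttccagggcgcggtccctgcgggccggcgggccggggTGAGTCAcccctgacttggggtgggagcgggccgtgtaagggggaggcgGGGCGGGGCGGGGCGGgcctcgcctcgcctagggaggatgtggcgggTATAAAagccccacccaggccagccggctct
PLAU, chr10:73910882-73911131, plus strand: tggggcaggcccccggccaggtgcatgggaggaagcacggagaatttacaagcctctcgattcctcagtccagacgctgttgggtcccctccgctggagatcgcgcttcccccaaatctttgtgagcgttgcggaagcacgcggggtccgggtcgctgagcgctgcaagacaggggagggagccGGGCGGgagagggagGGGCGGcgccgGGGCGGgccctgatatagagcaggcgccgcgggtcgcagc
SERPINE2, chr2:224031479-224031728, minus strand: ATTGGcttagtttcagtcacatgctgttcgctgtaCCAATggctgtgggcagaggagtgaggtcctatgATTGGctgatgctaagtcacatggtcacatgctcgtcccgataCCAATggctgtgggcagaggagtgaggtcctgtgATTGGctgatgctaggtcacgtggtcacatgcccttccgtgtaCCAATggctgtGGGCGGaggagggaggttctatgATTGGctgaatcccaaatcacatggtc
PLAUR and ANXA2 each held 1 AP-1 site, 186 and 127 bases before the start, and the SERPINB2 window held 1 at 102 bases, against 6.57% of 35116 such windows. ANXA2 and SERPINB2 also held a TATA box, 31 and 30 bases before the start, against 10.7% of windows. The PLAU window shown held 3 GC boxes and ANXA2 also 3, overlapping each other by 1 base, a box found at least once in 42.6% of windows. One of the SERPINE2 windows held 7 CCAAT boxes, 4 of them on the opposite strand, in a run of near repeats, a number reached by 7 of the 35116 windows, while 32.0% held at least 1. The other SERPINE2 window held 2 GC boxes, and the other PLAU window 1 CCAAT box. Which start site these cells used was not measured, and a match of letters is a description, not a site in use.

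Leaving out SERPINB2, which had very few reads, the widest difference was a lower PLAT in both subclones, and the next a lower SERPINE2 in subclone 2. Of the 6 genes, 5 reached a mean of 1 RPKM and entered the counts, SERPINB2 being too low. Ratios were log2 of (RPKM + 0.1) of a library over another, a scale on which low genes change less than their RPKM. Past 2-fold down, subclone 1 had 1 of the 5 genes (PLAT) relative to the parent, while 1.82% of all 11370 genes were past that limit, and past 2-fold up it had none, while 4.90% of all genes were. Past 2-fold down, subclone 2 also had 1 of the 5 (PLAT), beside 2.16% of all genes, and past 2-fold up none, beside 5.33%. With the subclones set against each other, none of the 5 passed 2-fold, where 1.42% of all genes were past it up in subclone 2 and 1.39% down. The median log2 ratio of the 5 genes was -0.17 in subclone 1 and -0.45 in subclone 2 over the parent, beside 0.0043 and 0.037 over all genes, and both comparisons share the parent library.

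**Figure D1:**
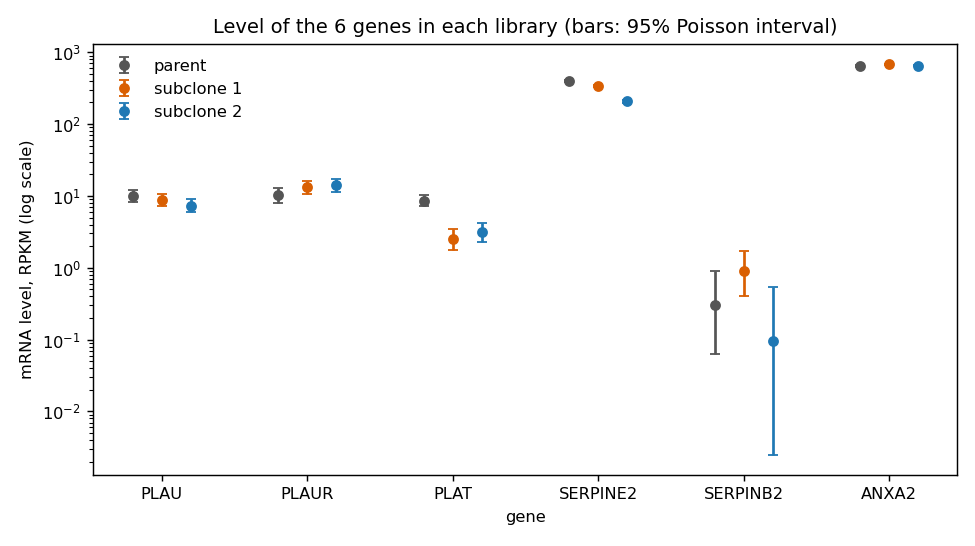
The vertical axis is the mRNA level in RPKM on a log scale and the horizontal axis the gene; each point is 1 library, with its exact 95% Poisson interval. ANXA2 and SERPINE2 sit at 208 RPKM or more in all 3 libraries, PLAU, PLAUR and PLAT between 2.53 and 14 RPKM, and SERPINB2 below 1 RPKM.

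PLAT, tissue-type plasminogen activator, is a secreted protease encoded on chromosome 8. Its 123 reads in the parent library made a level of 8.64 RPKM (7.18 to 10.3), its 37 in subclone 1 made 2.53 RPKM (1.78 to 3.49), and its 47 in subclone 2 made 3.13 RPKM (2.30 to 4.17). The parent was the highest library, and its interval overlapped neither subclone. PLAT in subclone 1 was 0.293 times the parent (0.197 to 0.426), a log2 ratio of -1.73, which only 0.589% of all genes were below. In subclone 2 it was 0.363 times the parent (0.254 to 0.512), a log2 ratio of -1.43, with 0.985% of genes below it. A difference between the subclones was not detectable at this depth (fold 1.24, 0.788 to 1.96). PLAT is also made by endothelial cells, and of 7 endothelial markers (PECAM1, CDH5, VWF, KDR, TEK, EMCN and ERG) 4, 6 and 5 were listed in parent, subclone 1 and subclone 2, ERG not being analysed here. Their summed level was 5.11, 12 and 7.66 RPKM and was mostly PECAM1 (3.33, 9.81 and 4.46 RPKM), lowest in the parent. KDR, the next in level, was also lowest in the parent (37, 54 and 88 reads), and EMCN had 0, 2 and 1 reads. TEK, by contrast, was highest in the parent as PLAT was (8, 2 and 1 reads), VWF had 2, 1 and 1 reads, and CDH5, which defines the type, had 0, 1 and 0. The part of such cells in the level of PLAT was not tested.

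PLAU, urokinase, has 11 exons in the GENCODE annotation of GRCh38, spanning 73909177 to 73917497 of chromosome 10 (plus strand). These places, like those given for the genes that follow, are of another build than hg19, which the submitters' processing notes name. The parent counted 121 reads of PLAU, a level of 10.1 RPKM (8.35 to 12), subclone 1 counted 110, or 8.90 RPKM (7.32 to 10.7), and subclone 2 counted 93, or 7.34 RPKM (5.93 to 9.0). The 3 intervals overlapped, with the parent highest and subclone 2 lowest. The fold over the parent was 0.885 in subclone 1 (0.678 to 1.16), which was not a detectable difference at this depth, and 0.730 in subclone 2 (0.551 to 0.965), a log2 ratio of -0.45. Both folds of PLAU were nearer to 1 than those of PLAT. PLAU overlaps C10orf55, which lies on the opposite strand and was not analysed here.

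PLAUR, the urokinase receptor, a membrane protein held by a lipid anchor, has 7 exons between 43646095 and 43670547 of chromosome 19 (minus strand). In the parent its level was 10.2 RPKM (7.99 to 12.9) from 72 reads, against 13.3 RPKM (10.7 to 16.2) from 96 for subclone 1 and 14 RPKM (11.5 to 17.0) from 104 for subclone 2. It was lowest in the parent, though all 3 intervals overlapped. PLAUR in subclone 2 was 1.37 times the parent, with an interval from 1.01 to 1.88, and in subclone 1 it was 1.30 times the parent, with an interval from 0.947 to 1.79 that includes 1. The subclones did not differ detectably (fold 1.06, 0.793 to 1.41). PLAUR and PLAU are also made by macrophages: 5, 5 and 3 of the 8 monocyte and macrophage markers were listed, CSF1R and FCGR3A were not analysed here, and their summed level of 77.1, 116 and 102 RPKM was mostly CD68 (75.3, 112 and 99.6 RPKM), a lysosomal protein that many cells make. ITGAM was lowest in the parent as PLAUR was (11, 24 and 27 reads). LYZ had 7, 7 and 10 reads, CD14 had 1, 8 and 0, and CD163 had 0, 2 and 0. PTPRC, which marks all leukocytes, had 2 reads in the parent and was at 0 in both subclones, and CSF1R, a defining marker of macrophages, is among those not analysed. The part of such cells in the level of PLAUR was not tested.

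SERPINE2, protease nexin 1, was the more abundant inhibitor by far. Its gene has 9 exons between 223975112 and 224039319 of chromosome 2 (minus strand). The 3989 reads of the parent made a level of 393 RPKM (381 to 406), against 342 RPKM (331 to 354) from 3564 for subclone 1 and 208 RPKM (199.8 to 217) from 2224 for subclone 2. No 2 of the libraries overlapped, and subclone 2 was the lowest. SERPINE2 in subclone 2 was 0.530 times the parent (0.503 to 0.558), a log2 ratio of -0.92 that stayed short of 2-fold and was above only 2.66% of all genes. Subclone 1 was 0.870 times the parent (0.831 to 0.910), and subclone 2 was 0.609 times subclone 1 (0.577 to 0.642). Even at its lowest, in subclone 2, SERPINE2 ranked at 277 of 14931 listed genes, from rank 147 in the parent. Fibroblasts also make SERPINE2, and 5, 6 and 5 of 10 fibroblast markers were listed in parent, subclone 1 and subclone 2. Their summed level was 15.7, 31.2 and 24.3 RPKM and was mostly LUM (10.1, 24.0 and 21.0 RPKM), lowest in the parent. COL3A1, by contrast, was highest in the parent and lowest in subclone 2 as SERPINE2 was (109, 56 and 12 reads), COL1A1 had 9, 11 and 1 reads, and COL1A2 had 1, 1 and 0. The markers thus moved in both directions, their part in the level of SERPINE2 was not tested, and PDGFRA, PDGFRB, FAP and POSTN were not analysed here.

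SERPINB2, PAI-2, spans 63871692 to 63903890 of chromosome 18 (plus strand) and overlaps SERPINB10, which was not analysed here. It rested on 3 reads in the parent, 0.307 RPKM (0.0632 to 0.896), on 9 in subclone 1, 0.896 RPKM (0.410 to 1.70), and on 1 in subclone 2, 0.0971 RPKM (0.00246 to 0.541). Subclone 1 was the highest, and its interval overlapped both other libraries. Neither subclone differed detectably from the parent, the folds being 2.92 (0.729 to 16.8) and 0.317 (0.00603 to 3.94). Subclone 2 was 0.108 times subclone 1 (0.00247 to 0.782), by 1 read against 9.

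ANXA2, a calcium-dependent membrane binder, was the highest of the 6 in every library. Its gene spans 60347134 to 60402883 of chromosome 15 (minus strand). From 4869, 5202 and 5137 reads its level was 651 RPKM (633 to 670.0) for the parent, 678 RPKM (659 to 696) for subclone 1 and 653 RPKM (635 to 671) for subclone 2, which is rank 77, 76 and 76 in the libraries. The 3 intervals overlapped and the levels were nearly equal. The fold over the parent was 1.04 in subclone 1 (1.00 to 1.08) and 1.00 in subclone 2 (0.964 to 1.04), and division by ACTB turned the log2 ratio in subclone 1 from 0.057 to -0.075. Near-identical copies of ANXA2 exist, and ANXA2P1, ANXA2P2 and ANXA2P3 were listed with at most 3 reads in a library. How reads that match several copies were counted is not given in the sources used here.

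**Figure D2:**
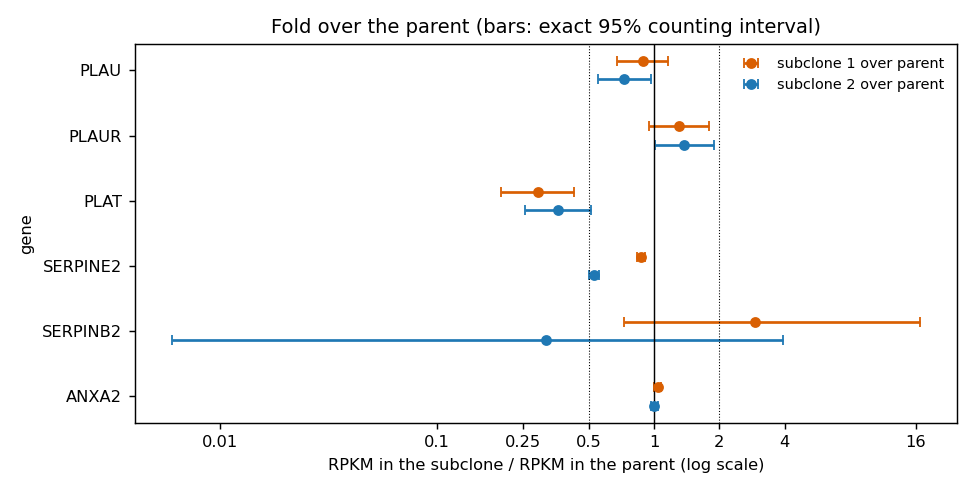
The horizontal axis is the RPKM of a subclone over the RPKM of the parent on a log scale, with exact 95% counting intervals; the solid line is 1 and dotted lines are 0.5 and 2. PLAT lies near 0.3 in both subclones (0.293 and 0.363) and SERPINE2 at 0.530 in subclone 2, while ANXA2 stays at 1.04 and 1.00 (0.057 and -0.075 on the log2 scale in subclone 1 before and after division by ACTB).

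A counting interval that leaves out 1 is common in these libraries, and abundant genes reach it by small differences. In subclone 1 over the parent, 3 of the 5 genes had such an interval (ANXA2, whose interval began at 1.0003, PLAT and SERPINE2), beside 40.7% of the 11047 genes with whole reads. In subclone 2 over the parent, 4 had one (PLAU, PLAUR, PLAT and SERPINE2), beside 42.6%. For subclone 2 over subclone 1, SERPINE2 was the only 1 of the 5, beside 21.7% of all genes.

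**Figure D3:**
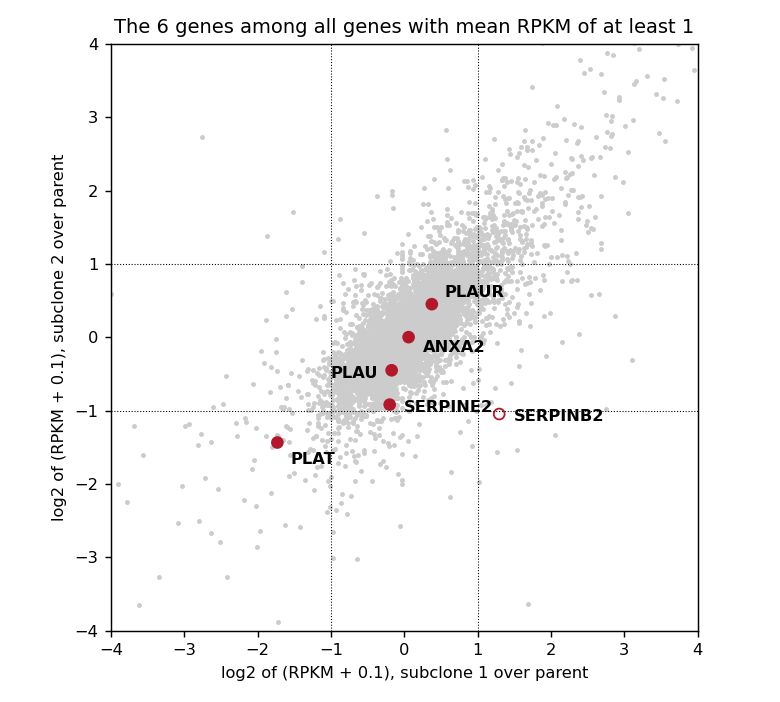
Each grey point is 1 of the 11370 genes counted, by its log2 ratio of (RPKM + 0.1) over the parent in subclone 1 (horizontal) and subclone 2 (vertical), which share the parent library; dotted lines are 2-fold and 64 genes lie outside the axes. PLAT stands at -1.73 and -1.43, at the low edge in both directions, and the open point is SERPINB2, which was under the limit on mean RPKM.

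The genes stood in 1 order by level in all 3 libraries. By value, the gaps between PLAUR, PLAU and PLAT were wider in the subclones than in the parent. For PLAU and PLAUR the intervals of the ratio in the parent and subclone 1 overlapped. ANXA2 was above SERPINE2, and SERPINE2 above the rest, in each library. In the parent PLAUR, PLAU and PLAT, at 10.2, 10.1 and 8.64 RPKM, did not differ beyond their intervals. In both subclones PLAUR was above PLAU and PLAU above PLAT, each beyond the interval of their ratio, and SERPINB2 was last throughout.

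Ratios between genes of the same library do not depend on how libraries are scaled. The ratio of PLAU to PLAUR was 0.985 in the parent (0.729 to 1.34), 0.671 in subclone 1 (0.506 to 0.892) and 0.524 in subclone 2 (0.392 to 0.700). Ligand and receptor mRNA thus did not differ beyond the interval in the parent, and the receptor exceeded the ligand in both subclones. Between lines, the interval of the parent overlapped that of subclone 1 and not that of subclone 2. The ratio of PLAU to PLAT was 1.16 in the parent (0.899 to 1.51), 3.52 in subclone 1 (2.41 to 5.26) and 2.34 in subclone 2 (1.63 to 3.40), so that urokinase was the main activator mRNA in the subclones. SERPINE2 stood at 39.1 times PLAU in the parent (32.6 to 47.3), 38.4 times in subclone 1 (31.8 to 46.9) and 28.4 times in subclone 2 (23.1 to 35.3). Over PLAT it stood higher by value in the subclones, at 45.6 times in the parent (38.1 to 55.0), 135 times in subclone 1 (97.97 to 192) and 66.5 times in subclone 2 (49.8 to 90.7). For this ratio the interval of the parent overlapped that of subclone 2 and not that of subclone 1. S100A10, the partner of ANXA2, stood at 2.83 times ANXA2 in the parent (2.74 to 2.94), 4.0 times in subclone 1 (3.87 to 4.13) and 3.82 times in subclone 2 (3.69 to 3.94). The subclones were alike in having more S100A10 for each ANXA2 than the parent.

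**Figure D4:**
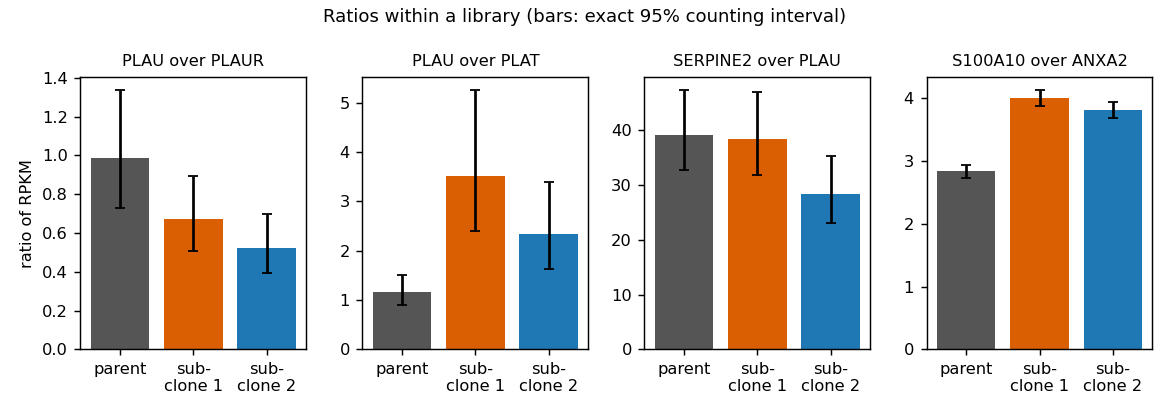
Bars give the ratio of the RPKM of 2 genes in the same library, each panel on an axis from 0, with exact 95% counting intervals. PLAU over PLAUR goes from 0.985 in the parent to 0.524 in subclone 2, PLAU over PLAT is above the parent in both subclones, and S100A10 over ANXA2 is 2.83 in the parent and 4.0 and 3.82 in the subclones.

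Of 11 inhibitors of activators, of plasmin or of the proteases upstream, SERPINE2 and SERPINB2 included, A2M and PZP were not analysed here and 6 had a mean RPKM of at least 1. Past 2-fold up from the parent were 3 of the 6 in subclone 1 and 2 in subclone 2, and none was past 2-fold down, where 4.90% and 5.33% of all genes were past it up and 1.82% and 2.16% down. The median log2 ratios were 0.96 and 0.77, beside 0.0043 and 0.037 over all genes. Of the genes past 2-fold, SERPINA5 met the limit on the mean only through subclone 1 (0.578, 3.85 and 0.915 RPKM). SERPINF2 met it only through the subclones (0.388, 1.13 and 1.75 RPKM). The counts and medians of this list are thus in part set by that limit. With a mean of at least 5 RPKM asked for, 2 genes remained in the list (SERPINE2 and SERPINB6), and the medians went to 0.19 and -0.23.

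SPINT1, a membrane-bound Kunitz inhibitor of the proteases matriptase and HGF activator, was at 1.26, 4.72 and 8.26 RPKM in parent, subclone 1 and subclone 2 (14, 54 and 97 reads). It was lowest in the parent, with folds of 3.76 (2.06 to 7.32) and 6.58 (3.74 to 12.5). SERPINA5, protein C inhibitor, had 0.578, 3.85 and 0.915 RPKM (6, 41 and 10 reads) and was high in subclone 1 alone, at 6.65 times the parent (2.81 to 19.2). SERPINF2, which inactivates plasmin directly, had 0.388, 1.13 and 1.75 RPKM (4, 12 and 19 reads), with folds over the parent of 2.92 (0.885 to 12.4) and 4.51 (1.5 to 18.2), so that the first rests on too few reads to be told from 1.

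The receptors that clear the complexes and the partners of PLAUR on the membrane differed from the parent in both directions. Of 19 such genes, FPR1 and FPR2 were not analysed here and 11 had a mean RPKM of at least 1. Past 2-fold from the parent, subclone 1 had 3 of the 11 up and none down and subclone 2 had 1 up and 1 down, where 4.90% and 5.33% of all genes were past it up and 1.82% and 2.16% down. Their median log2 ratios were 0.31 and 0.16, beside 0.0043 and 0.037 over all genes. By a counting interval that left out 1, 7 were higher and 1 was lower in subclone 1, and 6 were higher and 4 lower in subclone 2. Of all genes with whole reads, 40.7% and 42.6% had such an interval in either direction, and abundant genes reach it by small differences. LRP1, the endocytic receptor that takes up complexes of urokinase or tissue-type activator with their inhibitors, was at 16.2, 35.4 and 39.4 RPKM in the same order, folds of 2.18 (2.03 to 2.35) and 2.43 (2.26 to 2.61). It was lowest in the parent by a wide margin. VLDLR, another receptor that clears such complexes, was at 6.48, 5.24 and 3.83 RPKM, highest in the parent, folds of 0.808 (0.673 to 0.970) and 0.592 (0.484 to 0.721). It and ITGA3, an integrin chain at 0.795 times the parent in subclone 2, are named after their values were seen. ITGA5, a chain of the fibronectin receptor, had 39.99, 80.9 and 57.2 RPKM, folds of 2.02 (1.85 to 2.21) and 1.43 (1.31 to 1.57). ITGB3, a chain of the vitronectin receptor, had 0.819, 2.57 and 0.216 RPKM (18, 58 and 5 reads), higher than the parent in subclone 1 (fold 3.14, 1.82 to 5.66) and lower in subclone 2 (fold 0.264, 0.0766 to 0.737). It met the limit on the mean only through subclone 1, so that its place in the counts is in part set by that limit. ITGB1, the most abundant of this group, had 288, 356 and 322 RPKM and stayed within 1.24 times the parent.

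Among the genes that receive or pass on plasmin, no plasminogen receptor was past 2-fold. Of 7 plasminogen-related genes, ANXA2 included, PLG, the zymogen itself, was not analysed here. None of the other 6 passed that limit in a subclone over the parent, which is near the shares of all genes. Those shares were 4.90% and 5.33% up and 1.82% and 2.16% down. The medians of the 6 were 0.041 and -0.15, beside 0.0043 and 0.037 over all genes. S100A10 had 1847, 2711 and 2491 RPKM, with folds of 1.47 (1.43 to 1.51) and 1.35 (1.31 to 1.39). KRT8, a keratin also found at the surface, had 1614, 1641 and 1742 RPKM, and ENO1, enolase 1, had 718, 706 and 584 RPKM, with folds over the parent from 0.813 to 1.08. Of 10 proteases that can activate pro-urokinase, PLG, KLKB1, F12, KLK2 and KLK4 were not analysed here. Among the others only CTSB and CTSL1 had a mean RPKM of at least 1. Neither was at least 2-fold changed, again near those shares, the median being 0.093 and -0.37. CTSL1, cathepsin L, had 475, 407 and 278 RPKM, lowest in subclone 2 like SERPINE2, at 0.586 times the parent (0.555 to 0.617). CTSB, cathepsin B, had 160, 212 and 163 RPKM, highest in subclone 1, where CTSL1 was below the parent. The folds of CTSB over the parent were 1.33 (1.27 to 1.39) in subclone 1 and 1.02 (0.970 to 1.08) in subclone 2. From subclone 1 to subclone 2 both were lower, CTSB at 0.769 times (0.733 to 0.806) and CTSL1 at 0.684 times (0.648 to 0.722). Of 11 factors that plasmin activates, MMP3, MMP9, MMP13, PDGFD and VEGFC were not analysed here and 4 had a mean RPKM of at least 1. Past 2-fold up from the parent were 2 of them in subclone 1 and 1 in subclone 2, and none was past 2-fold down, where 4.90% and 5.33% of all genes were past it up and 1.82% and 2.16% down. Their median log2 ratios were 0.81 and 0.62. MMP1, a collagenase also named after its values were seen, had 10.5, 7.09 and 11.3 RPKM and was lower than the parent in subclone 1 (fold 0.676, 0.488 to 0.930). MMP14, a membrane-bound collagenase, had 8.08, 17.9 and 15.8 RPKM, folds of 2.21 (1.79 to 2.74) and 1.96 (1.58 to 2.44). PDGFC, a growth factor freed by plasmin and tissue-type activator, had 0.145, 3.66 and 2.96 RPKM (2, 52 and 43 reads), folds of 25.3 (6.67 to 215) and 20.4 (5.32 to 174). It met the limit on the mean only through the subclones, which in part sets the counts and medians of these factors.

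**Figure D5:**
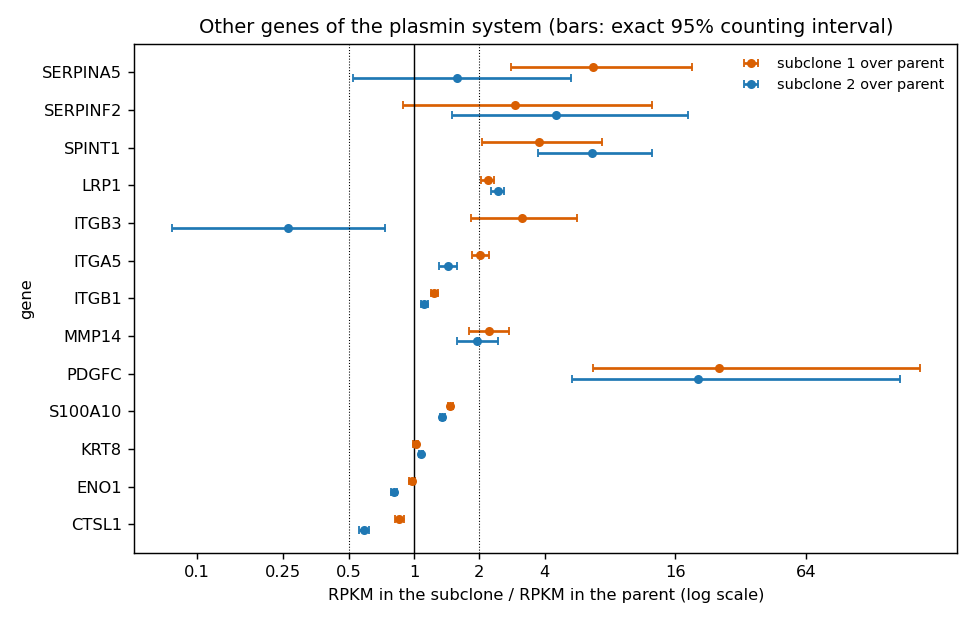
The horizontal axis is the RPKM of a subclone over the RPKM of the parent on a log scale, with exact 95% counting intervals; the solid line is 1 and dotted lines are 0.5 and 2. SPINT1, LRP1 and PDGFC are above the parent in both subclones, SERPINA5 in subclone 1 (6.65), and ITGB3 lies on opposite sides of 1 (3.14 and 0.264).

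The low PLAT was not shared to the same degree by the genes beside it. The 3 nearest genes that reached a mean of 1 RPKM on each side were AP3M2, MYST3, ANK1, IKBKB, POLB and VDAC3. Their log2 ratios over the parent ran from -1.03 (POLB) to 0.82 (ANK1) in subclone 1 and from -0.64 (AP3M2) to 0.61 (ANK1) in subclone 2, all above those of PLAT (-1.73 and -1.43). Beside SERPINE2 the 6 neighbours were all below 0 in subclone 2, from -0.99 for AP1S3 to -0.08 for MRPL44, with a median of -0.42, and the -0.92 of SERPINE2 lay within that range. In subclone 1 the same neighbours ran from -0.49 to 0.07. Beside PLAU the 6 neighbours had medians of 0.05 and 0.14, and beside ANXA2 0.23 and 0.15. Near PLAUR, the potassium channel gene KCNN4, second on its side, had 9.35, 16.3 and 19.4 RPKM, lowest in the parent as PLAUR was. C19orf61, the nearest on that side, had 20.6, 19.6 and 20.6 RPKM, and the 6 neighbours had medians of 0.16 and 0.01. SERPINB2 lies among other serpin genes, of which SERPINB7 (0.698, 2.81 and 2.65 RPKM), SERPINB3 (3.73, 6.17 and 9.68 RPKM) and SERPINB4 (4.49, 10.1 and 15.7 RPKM) were higher in both subclones than in the parent. SERPINB8, on its other side, had 3.40, 2.74 and 2.24 RPKM. SERPINB3 and SERPINB4 are near-identical, so that reads may be split between them.

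Genes most like each of the 5 were sought among the 8211 genes that reached a mean of 5 RPKM, by the distance between their pairs of log2 ratios over the parent, which rests on 3 libraries. For PLAT they were TBX3, a T-box transcription factor (distance 0.25; 9.12, 2.93 and 3.87 RPKM), KRT7, a keratin of bile duct cells (0.35; 14.4, 3.46 and 6.04 RPKM) and MANEAL (0.44; 8.34, 3.26 and 3.41 RPKM). In this pool the nearest gene of PLAT was at 0.25, while the nearest gene of each of the other 4 was within 0.031. PLAT itself did not reach a mean of 5 RPKM, so that genes of its own level were mostly left out of the pool. Whether few genes of its level share its pattern was not tested. For SERPINE2 they were DNAJB4, LY6E and ARL6IP6, all with their lowest level in subclone 2. For PLAU they were ZNF394, FASTKD1 and DYNC1I2, for PLAUR ZNF687, ADCY6 and DOCK1, and for ANXA2 MRPS36, LONP1 and NUMA1.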

How the data were processed

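Per the file headers the authors deposited RPKM values by Entrez number and symbol, 1 table per library. The tables list genes above 0 only, so that 0 stands for a gene with an entry in another library only. The submitters' processing notes name hg19; the aligner, the counter, the annotation, and the treatment of strand and of reads that match several genes are not given in the sources used here.

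The whole reads were recovered because RPKM is reads over length and total. Library totals relative to the parent were read from 653 and 625 genes of equal read number, and the totals themselves from the whole lengths of 2432 low genes (92.6% within 0.03 bases). A gene took the smallest length that gave whole reads (within 0.0002) and was within 10% of a GENCODE 29 transcript, or else between 0.5 times the median and 1.5 times the longest, as for PLAT, S100A10, ITGB3 and CTSL1. Whole reads were found for 97.2% of the 11370 genes that reached a mean of 1 RPKM. A wrong multiple would narrow or widen an interval and leave the RPKM unchanged.

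Log2 ratios used a pseudocount of 0.1 and calls a limit of 2-fold. Intervals were exact Poisson (levels) and Clopper-Pearson (ratios) at 95%. The 6 members and all lists were chosen with earlier results of these data known. Over the lists together, the genes named were those at least 2-fold changed in a subclone over the parent and the 5 others highest in RPKM. CTSB and SERPINB6 (each 1 of only 2 genes left), VLDLR, ITGA3 and MMP1 were added after values were seen. One gene of the inhibitor list is not reported here. Markers, 3 neighbours a side and the 3 genes of most similar pattern are also named. Older symbols were matched by Entrez number. The scripts were tested on simulated data. Alternatives were other pseudocounts, scalings, filters and 1.5-fold. Versions were scipy 1.17.1, pandas 2.3.3, numpy 2.4.6 and Python 3.11.15.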

Additional observations from a re-analysis of the deposited data

Results flagged for a closer look

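SERPINB2 and ITGB3 had log2 ratios over the parent of opposite sign in the 2 subclones. The difference rests on 1 library per line and was not tested between lines. SERPINB2 was at 1.29 in subclone 1 and -1.04 in subclone 2, which puts the subclones -2.34 apart on that scale, from 1 and 9 reads. ITGB3 was at 1.54 and -1.54, with -3.08 between the subclones, and both of its counting intervals over the parent left out 1.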

How the results depend on the processing

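No paired analysis was possible because each line has 1 library, nor could a library be left out. Of 126 log2 ratios of the 6 genes under alternatives, 119 stayed within their counting interval, and PLAT over the parent stayed between -1.86 and -1.45 (subclone 1) and between -1.47 and -1.22 (subclone 2). ACTB was 0.13 higher (log2) in subclone 1 than in the parent, and dividing by it shifted the ratios that involve subclone 1 by about as much. In subclone 1 over the parent ANXA2 turned to -0.075 and SERPINE2 went to -0.33. Between the subclones ANXA2 went to 0.072 and SERPINE2 to -0.59. In subclone 2 over the parent ACTB differed by 0.007, and ratios changed little. With GAPDH, ANXA2 went to 0.066 in subclone 2 over the parent, and between the subclones ANXA2 went to 0.064 and SERPINE2 to -0.60. Low reads limit SERPINB2, PDGFC and SERPINF2 most.

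The counts of the 6 genes changed by construction. With no filter SERPINB2 entered, giving 1 higher in subclone 1, 2 lower in subclone 2 and 1 lower between the subclones. With a mean RPKM of at least 5 PLAT dropped out, giving 0 lower in subclone 1 and 0 lower in subclone 2. At 1.5-fold SERPINE2 joined, giving 2 lower in subclone 2 and 1 lower between the subclones.

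Among all genes, the counts up/down past 2-fold with a pseudocount of 1 were 347/117 (subclone 1 over parent), 380/150 (subclone 2 over parent) and 80/77 (subclone 2 over subclone 1). In the same order they were 1523/884, 1553/941 and 842/902 unfiltered, 233/71, 253/93 and 43/46 at a mean of 5 RPKM, and 1317/848, 1444/830 and 540/467 for 1.5-fold. Scaled by ACTB, 328 were down in subclone 1 over the parent, so that genes up made 57.8% of these calls in place of 72.9%. Between the subclones they made 63.9% with ACTB and 62.6% with GAPDH, in place of 50.5%.

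Medians of lists moved as follows. With ACTB, in subclone 1 over the parent, the plasminogen receptors went to -0.092, the pro-urokinase activators to -0.040 and the partners of PLAUR to 0.17, and between the subclones these went to 0.037, -0.34 and -0.022. With GAPDH the activators went to -0.35 and the partners to -0.030 between the subclones, and the partners to 0.22 in subclone 2 over the parent. With no filter the activators went to 0.41, 0.030 and -0.38 in the 3 comparisons, the partners to 0 between the subclones and the factors that plasmin activates to 1.08 in subclone 1. With a mean RPKM of at least 5 these factors went to 0.48 and 0.28 over the parent, and the inhibitors to 0.19 and -0.23 over the parent.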
